A study of Mus musculus with 14 samples.

Results

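The genes described are 7 loci, most of them abundant noncoding RNAs of the nucleus, read in RNA-seq libraries of c-KIT-positive spermatogonia: the ribosomal precursor locus Rn45s, the structural RNAs Rpph1, Rmrp and Rn7sk, the nuclear long noncoding RNAs Malat1 and Neat1, and the protein-coding gene Lars2. The noncoding loci were listed by name, and Lars2 was added because it had the highest count of any gene in every polyA library. Of the 7, 6 have a row in the count tables of 24984 genes; Rn7sk was not analysed here. The list was chosen by the share of counts these genes took and by its difference between the library kits, so levels and kit differences are given as descriptions, without a test.

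Testicular cells of C57BL/6J mice were sorted on the surface receptor KIT, which marks spermatogonia that have begun to differentiate. In the deletion experiment, 3 injections of 200 µL were given, of corn oil to 2 control mice (Rosa26-CreERT2; Cbx2[Flox/+]) and of tamoxifen at 20 mg/mL to 2 others (Rosa26-CreERT2; Cbx2[Flox/Δ]). Both of these groups carry the tamoxifen-activated recombinase, expressed from the broadly active Rosa26 locus. Genotype and tamoxifen changed together, so their effects cannot be told apart. In the 23KRA experiment, 5 untreated Cbx2[+/+] mice were set beside 5 untreated mice homozygous for Cbx2[23KRA], an allele in which KR-to-A substitutions alter the CaPS domain of the protein. CBX2 is a subunit of the Polycomb repressive complex PRC1. No age of the mice is given in the sources used.

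The deletion libraries were made with a polyA-based kit (SMART-Seq mRNA LP, 20 ng of RNA, 7 and 11 PCR cycles) and the 23KRA libraries with a stranded total RNA kit that includes depletion of ribosomal cDNA (5 and 16 PCR cycles), although the molecule field of the labels reads polyA RNA for all 14. They are called polyA and total RNA libraries here. Kit, experiment, genotype background, sequencing and the mix of cells sorted cannot be told apart. The polyA libraries held 28169990 to 31166500 counts and the total RNA libraries 14562564 to 19814511. All 10 markers of differentiating spermatogonia were detected, with a summed level of 2680 to 2740 CPM (counts relative to the library total, corrected for composition) in the polyA libraries and 1670 to 2060 CPM in the total RNA libraries. The 7 spermatid markers summed to 2300 to 2990 CPM in the polyA libraries, so transcripts of later germ cells were present in the sort. In the total RNA libraries they summed to 270 to 1010 CPM in the wild type and 224 to 1030 CPM in the homozygous group. Cbx2 itself averaged 95.7 CPM in the oil controls and 82.5 CPM in the deleted group (edgeR log2 fold change -0.21, SE 0.12, adjusted p = 0.97), and 72.9 CPM against 64.0 CPM in the wild-type and homozygous groups of the 23KRA experiment. Counts over the whole gene do not show whether the targeted part was lost.

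Rn45s is the long precursor, transcribed by RNA polymerase I in the nucleolus, that is cut into the 18S, 5.8S and 28S ribosomal RNAs. Counts of the locus were not split between precursor and mature RNA, so they are not a measure of the precursor alone. Rpph1 and Rmrp, made by RNA polymerase III, are the RNA subunits of RNase P, which trims the 5′ ends of tRNA precursors, and of RNase MRP, which cleaves the ribosomal precursor, and these related enzymes share most of their protein subunits. Malat1 collects in nuclear speckles, and Neat1 is the scaffold of paraspeckles, nuclear bodies that hold RNA-binding proteins. Lars2 encodes the leucyl-tRNA synthetase of mitochondria. Of these RNAs, Rpph1, Rmrp and the Rn45s precursor normally carry no polyA tail, whereas the Lars2 mRNA does. Malat1 ends without a conventional tail, directly after an A-rich stretch encoded in its gene, where RNase P cuts off a tRNA-like RNA.

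Rpph1 (bases 1 to 300) and Rmrp (whole) are printed because their ratios between the kits were the 1st and 4th highest of all genes. Sequences and positions are from GENCODE release M21 on GRCm38 (mm10). Rpph1 lies on the minus strand at chr14:50807449-50807767, a single exon of 319 bases, and Rmrp on the minus strand at chr4:43492788-43493058, a single exon of 271 bases. Capitals mark the motif GGAANGTC, part of a region conserved between these RNAs and searched on the RNA strand only, and the longest runs of bases that the 2 RNAs share, CAGCGGGGC and GCAGTGCGA.
Rpph1: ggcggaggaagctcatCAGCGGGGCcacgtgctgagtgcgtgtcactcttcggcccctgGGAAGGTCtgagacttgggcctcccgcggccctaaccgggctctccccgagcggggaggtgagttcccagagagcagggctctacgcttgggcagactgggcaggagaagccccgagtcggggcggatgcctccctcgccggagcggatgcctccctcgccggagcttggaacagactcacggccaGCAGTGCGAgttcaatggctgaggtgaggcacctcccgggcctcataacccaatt
Rmrp: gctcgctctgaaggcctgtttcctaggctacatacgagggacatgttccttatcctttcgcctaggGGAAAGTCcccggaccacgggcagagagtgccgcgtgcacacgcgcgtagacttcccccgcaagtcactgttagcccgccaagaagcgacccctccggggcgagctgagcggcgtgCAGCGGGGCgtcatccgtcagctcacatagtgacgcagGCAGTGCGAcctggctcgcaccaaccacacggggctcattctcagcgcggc
The motif begins at base 60 of Rpph1 and at base 67 of Rmrp, and of 5627 annotated transcripts of 250 to 350 bases 116 hold it (2.06%). The shared run GCAGTGCGA begins at base 246 of Rpph1 and at base 221 of Rmrp, and 0.0889% of transcripts of that length hold it. The run CAGCGGGGC begins at base 17 of Rpph1 and at base 183 of Rmrp, and 0.178% of these transcripts hold it. Both runs were picked because the 2 RNAs share them, and both RNAs are among the transcripts counted. Their rarity is therefore no measure of kinship. The longest run of A is 2 bases in Rpph1 and 3 bases in Rmrp.

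Malat1 (chr19:5795690-5802672, minus strand, 1 exon of 6983 bases) has a run of 12 A at base 6674, near its 3′ end, shown in capitals in a window of 150 bases at chr19:5795910-5796059.
Malat1: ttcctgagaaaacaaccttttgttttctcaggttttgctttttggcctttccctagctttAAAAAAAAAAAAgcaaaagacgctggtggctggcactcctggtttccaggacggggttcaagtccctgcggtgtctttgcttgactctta
The A run is followed by 298 annotated bases, among which lies the tRNA-like RNA that RNase P releases. In Neat1 (chr19:5824708-5845478, minus strand, 1 exon of 20771 bases) the longest A run is 7 bases, and 11226 bases follow it. Lars2 (chr9:123366927-123462664, plus strand, 21 exons, 3894 bases) has a longest A run of 6 in the annotated transcript used here.

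Lars2 counts need a further remark on identity, since Lars2 headed every polyA library. The last exon of Lars2 (chr9:123461499-123462664) holds the end of the coding sequence, at 123461675, and the 3′ untranslated region. Within that region, 72 bases at chr9:123462048-123462119 match a transcript of Gm15564, an antisense gene on chromosome 16, with 98.6% identity on the same strand, and a longer stretch that includes them matches the transcript AA474408 on chromosome 7 with 80.1% identity. The first 30 of these bases, identical in Lars2 and Gm15564, are shown.
Lars2: GAATTCACCAAGCGTTGGATTGTTCACCCA
Neither of those 2 genes was in the count tables used here. In all, 8 other genes matched some part of Lars2, and those in the count tables did so outside this stretch, at 75.6 to 88.2% identity. The search covered annotated transcripts only. No ribosomal RNA sequence was available, so the stretch was not compared with ribosomal RNA. The sources used here do not say how reads that match several loci were counted, so the Lars2 count may include reads from near-identical copies elsewhere in the genome. No base-level coverage was analysed here.

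In the total RNA libraries, Rn45s and Rpph1 were the 2 highest genes in each of the 10. Rn45s took 2.80, 2.59, 1.94, 2.00 and 2.43% of counts in wild-type replicates 1 to 5 and 2.68, 2.5, 2.60, 2.09 and 2.13% in homozygous replicates 1 to 5. Rpph1 took 1.53, 2.75, 3.21, 2.79 and 2.36% in the wild-type libraries and 1.38, 3.31, 2.62, 2.71 and 2.53% in the homozygous libraries. Rn45s spanned a 1.44-fold range and Rpph1 a 2.39-fold range. Rpph1 was lowest in replicate 1 of both genotypes, where Rn45s exceeded it by the widest margin. The genotypes overlapped for both genes. Rn45s and Rpph1 together made up 4.06 to 5.81% of all counts of a library, after the kit's depletion of ribosomal cDNA.

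Rmrp, the sister RNA of Rpph1, stood at 0.113, 0.262, 0.130, 0.215 and 0.196% of counts in the wild-type libraries and at 0.152, 0.292, 0.299, 0.235 and 0.204% in the homozygous libraries. It ranked between 7th and 48th among all genes, with the lowest values in wild-type replicates 1 and 3 and the highest in homozygous replicates 2 and 3. Malat1 was steadier, at 0.246, 0.262, 0.275, 0.288 and 0.251% in the wild-type libraries and 0.214, 0.280, 0.245, 0.286 and 0.250% in the homozygous libraries. It ranked 7th to 11th throughout, and its lowest value was again in a replicate 1 library.

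Lower genes are given in CPM of the plain library total. Neat1 was a low gene in these cells, at 6.77, 17.4, 9.82, 12 and 9.49 CPM in the wild-type libraries and 8.13, 12.7, 8.65, 13.1 and 8 in the homozygous libraries. With 126 to 258 counts in a library, its 95% Wilson interval was 5.72 to 8.03 CPM in the lowest library and 15.4 to 19.6 in the highest, which covers counting error only. Lars2 stood at 145, 116, 96.6, 108 and 144 CPM in the wild-type libraries and 135, 93.5, 135, 95.5 and 109 in the homozygous libraries. It ranked between 1690th and 2665th, an ordinary level for an expressed gene, and its genotypes overlapped.

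**Figure D1:**
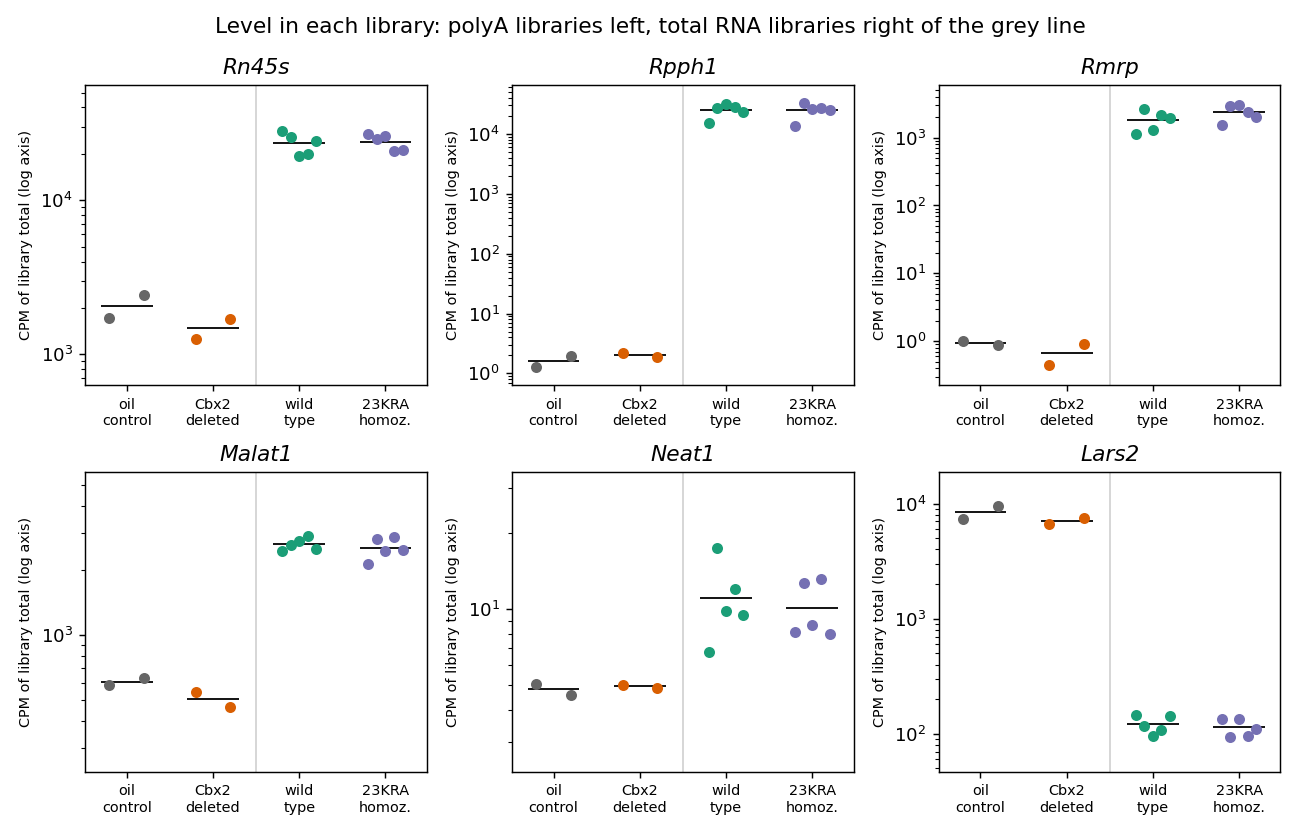
Level of each gene in each of the 14 libraries, in CPM on a log axis with its own range in each panel; points are libraries and black bars group means, with 2, 2, 5 and 5 libraries in the groups from left to right. Rpph1 and Rmrp lie between 0.451 and 2.22 CPM in the polyA libraries and between 1133 and 33058 CPM in the total RNA libraries, while Lars2 moves the other way.

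The order was different in the polyA libraries, where Lars2 was first in all 4. It held 0.738 and 0.948% of counts in the 2 oil controls and 0.670 and 0.744% in the 2 deleted libraries. Rn45s held 0.173 and 0.242% in the controls and 0.127 and 0.168% in the deleted libraries, and Malat1 0.0587 and 0.0630% against 0.0545 and 0.0463%. Both Rn45s and Malat1 were lower in each deleted library than in each control library, by a margin of 0.168 against 0.173% for Rn45s, whereas the Lars2 groups overlapped. The share of all genes that separate in this way was not computed, so the separation is a description only. For all 3 genes, oil control replicate 2 was the highest library.

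RNase P and RNase MRP RNA were nearly absent from the polyA libraries. Rpph1 had 36 and 61 counts in the controls (1.28 and 1.96 CPM) and 64 and 53 in the deleted libraries (2.22 and 1.85 CPM). Rmrp had 28 and 27 counts in the controls and 13 and 26 in the deleted libraries, which is 0.994, 0.866, 0.451 and 0.907 CPM. The 95% Wilson interval of the lowest Rmrp value, 0.263 to 0.771 CPM, overlaps those of both controls (0.688 to 1.44 and 0.595 to 1.26). Overlap of such intervals does not decide whether counting error alone accounts for the gap, which was not tested. Neat1 was nearly constant, at 5.08 and 4.56 CPM in the controls and 5.02 and 4.88 in the deleted libraries.

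Set side by side, the control libraries of the 2 experiments gave Rpph1 the highest ratio of total RNA to polyA level of the 18351 genes with counts in both. Rpph1 averaged 25287 ± 6328 CPM (SD, n = 5) in the total RNA wild type and 1.62 ± 0.48 (SD, n = 2) in the polyA controls, a ratio of 15633. Rmrp was 1972-fold higher in total RNA, the 4th highest ratio, at 1834 ± 613 (SD, n = 5) against 0.93 ± 0.0903 (SD, n = 2). Rn45s was 11.3-fold higher (rank 259), Malat1 4.34-fold (rank 885) and Neat1 2.30-fold (rank 2240), and Lars2 was 69.2-fold lower, 45th from the bottom. These ratios are to be read against a median log2 ratio of -0.51 over all of these genes. The list was chosen for this contrast, and each ratio sets 1 experiment against another.

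The untailed RNAs differed among themselves. Rn45s kept 1266 to 2419 CPM in the polyA libraries, ranking 3rd to 20th, while Rpph1 ranked 12895th to 14059th and Rmrp 14569th to 15993rd. The ratio of Rn45s to Rpph1 was 571 to 1355 in the polyA libraries and 0.605 to 1.94 in the total RNA libraries. Rpph1 exceeded Rmrp 8.74 to 24.6-fold in total RNA and 1.29 to 4.92-fold in the polyA libraries. Lars2 exceeded Rn45s 3.92 to 5.29-fold in the polyA libraries, and Rn45s exceeded Lars2 169 to 267-fold in total RNA. These ratios within a library do not depend on its total.

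Per kilobase of annotated transcript, the order of levels in the total RNA wild type was Rpph1 (79270 ± 19838 CPM per kilobase, SD, n = 5), Rmrp (6767 ± 2263), Malat1 (378 ± 24.8), Lars2 (31.3 ± 5.59) and Neat1 (0.534 ± 0.191). Neighbours in this order differed by far more than their spread. In the polyA controls the order was Lars2 (2165 ± 382, SD, n = 2), Malat1 (87.2 ± 4.40), Rpph1 (5.07 ± 1.51), Rmrp (3.43 ± 0.333) and Neat1 (0.232 ± 0.0177), where Rpph1 and Rmrp differed by little more than the SD of Rpph1. No length was used for Rn45s, so it has no place in this order. The Neat1 value divides by the long isoform and would be higher on the short one.

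Other structural RNAs from a background list are shown beside them. Of 29 listed, 12 had a row in the tables, 9 were higher on average in the total RNA wild type than in the polyA controls (75.0% of the 12, beside 32.7% of the 21156 genes with a count in these libraries), and 1 was lower. The 12 include Rnu7 and Rprl2, which had 0 counts in these libraries, whereas each of the 21156 genes had a count. Shares of the 12 are therefore not on the same basis as those of all genes. Of the 9, 4 (Rnu6, Rn4.5s, Rprl1 and Rprl3) rest on 1 to 17 counts over all of these libraries. Between the kits 7 of the 12 overlapped, Rprl2 among them. The 4 that were higher without overlap (33.3% of the 12, beside 14.3% of all genes with a count) are Rnu11, Rnu12, Terc and Vaultrc5. Rnu11, the U11 RNA of the minor spliceosome, had 27.2 ± 11.8 CPM (SD, n = 5) in total RNA and 2 counts in both polyA controls together. Its partner Rnu12 had 7.26 ± 4.06 against 0.34 ± 0.0719 (SD, n = 2). Terc, the RNA template of telomerase, had 6.08 ± 2.87 against 0.151 ± 0.013, and Vaultrc5, a vault RNA, 4.06 ± 2.96 against 0.494 ± 0.154. All lie far below the 25287 CPM of Rpph1 in the same total RNA libraries.

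Long noncoding RNAs went both ways. Of 24 in the tables, 15 were higher in the total RNA wild type (62.5%, beside 32.7% of all genes with a count) and 9 lower. Without overlap, 8 were higher (33.3%, beside 14.3% of all genes) and 6 lower (beside 9141 of 21156 genes), and 10 overlapped between the kits. Kcnq1ot1, the imprinted nuclear antisense RNA, stood at 456 ± 46.3 against 56.6 ± 1.79 CPM, an 8.05-fold ratio that is larger than that of Malat1. The lncRNA 2900097C17Rik stood at 116 ± 11.8 against 53.8 ± 4.35. Tug1 was lower in total RNA (82.3 ± 14.7 against 127 ± 12.8), and the snoRNA host Gas5 was level (68.4 ± 6.77 against 67.0 ± 2.74). For comparison with Lars2, the other 16 mitochondrial tRNA synthetases together summed to 761 to 801 CPM in the polyA controls and 442 to 494 CPM in the total RNA wild type. On the same scale, Lars2 alone was above that whole sum in the polyA controls, with a mean of 8375 CPM, and below it in total RNA, with 122 CPM. The cytosolic leucyl-tRNA synthetase Lars was at 196 to 226 CPM and 177 to 219 CPM in the same libraries.

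Deletion of Cbx2 was set against oil-injected controls with edgeR's quasi-likelihood test over 16725 genes, with CPM values again corrected for composition. Of these, 2 genes passed an adjusted p of 0.05 (0.012% of those tested), Cyp17a1 and Dcn, and none of the 6 listed genes did. At an unadjusted p under 0.05, 793 genes passed (4.74%), and 3 of the listed genes, Rn45s, Malat1 and Lars2, were among them, each lower in the deleted group. These 3 also lay among the most abundant genes of these libraries. DESeq2 called 1 gene and limma-voom none over all genes, and neither called a listed gene.

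Rn45s had the lowest p of the list, with 2061 CPM in the controls and 1483 CPM in the deleted group, which is -0.47 on the log2 scale (SE 0.13, edgeR adjusted p = 0.823). The value moved with single libraries: it was -0.68 without oil control replicate 1 (edgeR adjusted p = 0.000631) and -0.68 without deleted replicate 2 (edgeR adjusted p = 0.000652), but -0.22 without oil control replicate 2 and -0.29 without deleted replicate 1. Each of these fits sets 1 library against 2, so the spread comes from the remaining pair and from edgeR's trend over genes, and the lone library is assumed to vary like that pair. The p-values below the threshold therefore do not establish a change. With no filter on low counts Rn45s also passed, narrowly, at an edgeR adjusted p of 0.04997.

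Malat1 averaged 605 CPM in the controls and 507 CPM in the deleted group, which is -0.25 on the log2 scale (SE 0.11, edgeR adjusted p = 0.971). For Lars2 the averages were 8375 and 7113 CPM, -0.24 (SE 0.11, edgeR adjusted p = 0.971). Rpph1 differed by 0.34 (SE 0.32) and Rmrp by -0.43 (SE 0.47), both on fewer than 100 counts per library, and Neat1 by 0.06 (SE 0.21). The 6 genes had a median log2 fold change of -0.24, beside -0.0044 over all genes tested. In the same libraries the 8 Leydig cell markers summed to 21.8 to 25.4 CPM in the controls and 17 to 17.9 CPM in the deleted group, and the 7 spermatid markers to 2650 to 2990 against 2300 to 2640 CPM. The 9 markers of stroma, myoid cells and endothelium summed to 11.3 to 15 CPM in the controls and 18 to 26.7 CPM in the deleted group. Both the Leydig and the stromal sum leaned on a called gene. Cyp17a1 averaged 6.06 CPM in the controls and 1.66 in the deleted group, and Dcn 3.73 against 11 CPM. Col1a1 was level, at 4.87 against 4.95 CPM. Of the Leydig markers, 2 lay above and 6 below 0 on the log2 scale, and of the stromal markers 7 above and 2 below. The 5 markers of germ cells in general summed to 5570 to 6260 against 6240 to 6740 CPM, all 5 above 0 on the log2 scale and none called, and the Sertoli cell and leukocyte markers overlapped between the groups. Their part in the values of the listed genes was not tested. In bulk RNA, fewer cells of a type and less RNA per cell cannot be told apart.

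**Figure D2:**
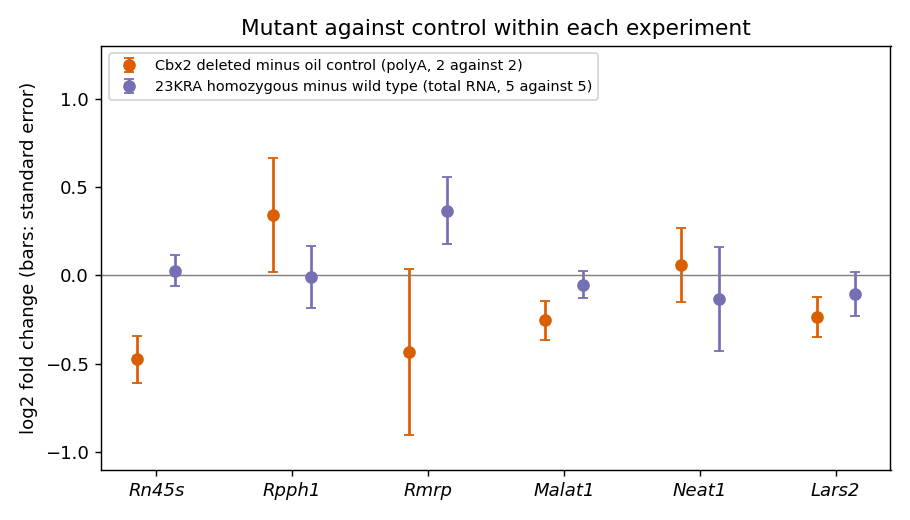
Log2 fold change of the 6 genes in each comparison, mutant minus control, from edgeR's fit over all genes; points are estimates and bars standard errors. Rn45s is the farthest from 0 in the deletion relative to its bar (-0.47, SE 0.13) and sits at 0.03 in the 23KRA comparison, and no point passed an adjusted p of 0.05.

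The 23KRA comparison tested 14208 genes, of which none passed an adjusted p of 0.05 with edgeR (0% called), while 432 passed at an unadjusted p under 0.05 (3.04%), none of them a listed gene. DESeq2 and limma-voom also called none at the adjusted threshold, with 524 and 488 at an unadjusted p under 0.05. Rn45s differed by 0.03 on the log2 scale (SE 0.09), Rpph1 by -0.01 (SE 0.18), Malat1 by -0.05 (SE 0.08), Neat1 by -0.13 (SE 0.29) and Lars2 by -0.11 (SE 0.12). Rmrp had the lowest p, with 1841 CPM in the wild type and 2374 CPM in the homozygous group, which is 0.37 on the log2 scale (SE 0.19, edgeR adjusted p = 1). Its highest values, in homozygous replicates 2 and 3, stood above every wild-type library, and the other 3 homozygous libraries lay within the wild-type range. The ratio of its sister RNA Rpph1 to Rmrp was 10.5 to 24.6 in the wild type and 8.74 to 12.4 in the homozygous group.

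The difference between the 2 comparisons was tested as an interaction over 17227 genes, and no gene passed (0% called). Rn45s again had the lowest p of the list, with a difference of 0.52 on the log2 scale (23KRA effect minus deletion effect, SE 0.22, edgeR adjusted p = 1). For Rmrp the difference was 0.81 (SE 0.75), for Rpph1 -0.33 (SE 0.55), for Malat1 0.22 (SE 0.16), for Neat1 -0.18 (SE 0.55) and for Lars2 0.15 (SE 0.22). The effect of deletion on Rn45s was thus not shown to differ from that of the 23KRA allele.

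The listed genes differed in how far they varied between libraries of 1 group. In the 23KRA experiment the within-group SD of log2 CPM, with 0.5 added to CPM before the log, was 0.466 for Rpph1 and 0.479 for Rmrp. The median over all genes was 0.327. Among the 10% of genes that were most abundant, 0.211% had a larger SD than Rpph1 and 0.141% a larger SD than Rmrp. Rn45s (0.206), Lars2 (0.241) and Malat1 (0.157) lay below the median of all genes, which includes many low genes that vary more. Of the most abundant 10%, 8.44% had a larger SD than Rn45s, 2.96% a larger SD than Lars2 and 27.3% a larger SD than Malat1, so these 3 varied more than most abundant genes. Neat1, a low gene, was at 0.437, and 39.3% of all genes had a larger SD. In the deletion experiment, Rn45s had an SD of 0.306 against a median of 0.132 over all genes, and Malat1 was at 0.137. Of the most abundant 10% there, 0.359% had a larger SD than Rn45s. Rmrp (0.286) and Rpph1 (0.256) are not ranked against Rn45s, since the added 0.5 shrinks the SD at their low levels. As a percent of the mean, the SD of Rmrp was 9.7 in the controls and 47.6 in the deleted group. That of Rpph1 was 29.7 and 12.8, and that of Rn45s 23.4 and 20.1.

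Across the 10 total RNA libraries, 27 relations were computed on log2 percent of counts, among the 6 genes and with depth and genes detected, and none passed after Benjamini-Hochberg adjustment. The largest was Rpph1 with Malat1 (Pearson r = 0.817, permutation p = 0.00248, adjusted 0.067, and Spearman rho = 0.782, permutation p = 0.0101, adjusted 0.0959), and r was 0.638 without the 2 libraries of lowest Rpph1 share. Rpph1 with Lars2 was negative (r = -0.738, permutation p = 0.00814, adjusted 0.0977, and rho = -0.794, permutation p = 0.00946, adjusted 0.0959), with r = -0.780 without those 2. Malat1 with Lars2 was negative too (r = -0.76, permutation p = 0.0109, adjusted 0.0977, and rho = -0.745, permutation p = 0.0177, adjusted 0.0959). Without homozygous replicate 1 and wild-type replicate 4 that r was -0.89. Rn45s with Lars2 was positive (r = 0.691, permutation p = 0.0342, adjusted 0.124, and rho = 0.661, permutation p = 0.0434, adjusted 0.167), with r = 0.636 without wild-type replicates 3 and 4. Shares of 1 total are not independent of each other.

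Depth moved with Rpph1 through 2 libraries. Replicate 1 of both genotypes had the most counts, 19635332 and 19814511, and the lowest Rpph1, and the correlation of Rpph1 with depth (r = -0.772, permutation p = 0.0308, adjusted 0.124, and rho = -0.261, permutation p = 0.474, adjusted 0.701) became 0.189 without them. It rests on those libraries. Rpph1 with Rmrp behaved alike, at r = 0.584 (permutation p = 0.0969, adjusted 0.187, and rho = 0.467, permutation p = 0.180, adjusted 0.406) over 10 libraries and -0.109 without the same 2. The labels give no sequencing date or batch, so whether replicate 1 marks one was not tested.

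**Figure D3:**
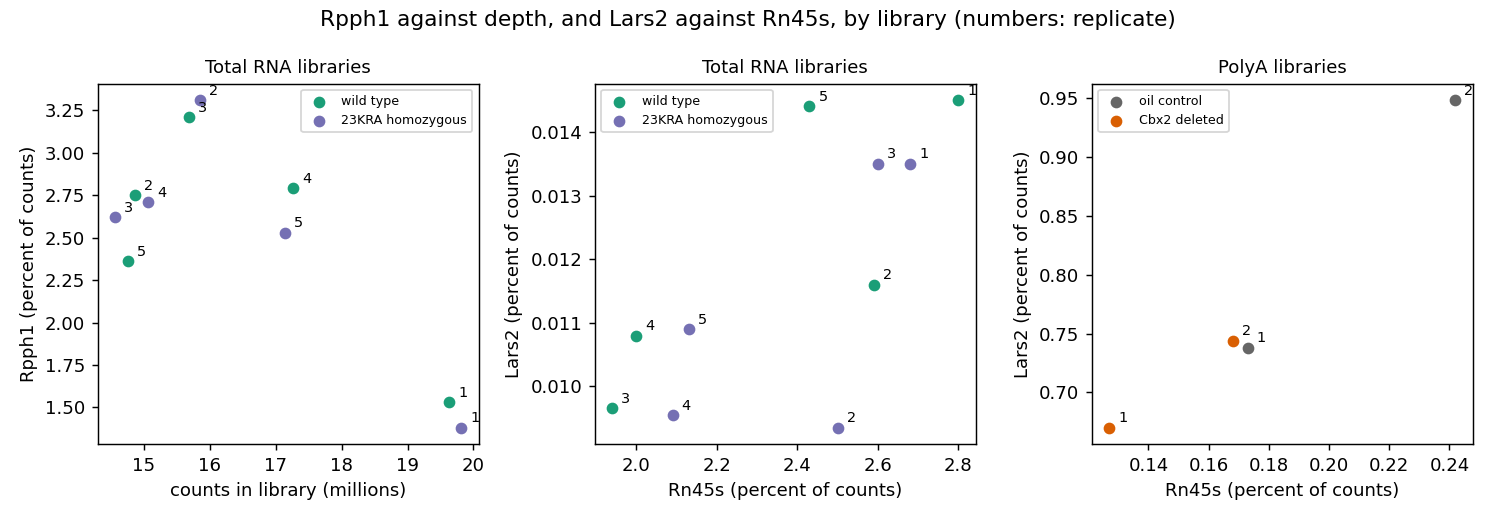
Left, Rpph1 (percent of counts) against depth (counts in the library) in the 10 total RNA libraries; middle and right, Lars2 against Rn45s (percent of counts) in the total RNA and polyA libraries; points are libraries, numbered by replicate and coloured by group. Replicate 1 of both genotypes lies apart in the left panel, at 1.53 and 1.38% Rpph1, and oil control replicate 2 lies at the top in the right panel, at 0.242% Rn45s and 0.948% Lars2.

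The genes most like each listed gene were found from log2 CPM with group means removed, over the 10 total RNA libraries and 8692 genes of at least 10 CPM. They are named as a description only, since the best of many genes will be high by selection. Rn45s was closest to Letm1 (r = 0.982), Slc3a2 (0.957) and Dgcr2 (0.945), and Rpph1 to Mynn (0.974), Gpcpd1 (0.964) and Ddias (0.958). For Rmrp they were Bmpr1a (0.965), the small nucleolar RNA Snora74a (0.959) and Ubl5 (0.954). Malat1 was closest to Neto2 (0.957), Sept7 (0.954) and Orc6 (0.953), and Neat1 to Cep55 (0.956), Ppia (0.952) and Prdx1 (0.951). For Lars2 they were Mybbp1a (0.982), Tubg1 (0.947) and Smc1a (0.939). No listed gene was among the 3 closest of another.

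Protein partners of these RNAs were read from the same fits, and no partner gene passed in either comparison. Of all genes tested, 0.012% passed in the deletion and 0% in 23KRA. Of the 11 protein subunits of RNase P and RNase MRP, 10 were tested in each experiment, with 7 above and 3 below 0 in both and medians of 0.11 in the deletion and 0.15 in 23KRA, beside -0.0044 and 0.0034 over all genes. In the deletion, Rpp30 had 110 CPM in the controls and 131 CPM in the deleted group (0.25, SE 0.12), and Pop4 89.0 against 99.7 CPM (0.17, SE 0.12). In 23KRA, Pop1 had 79.7 CPM in the wild type and 69.9 CPM in the homozygous group (-0.19, SE 0.11). Parp2, which starts 74 bases from Rpph1 on the other strand, had 79.9 against 82.8 CPM in the deletion (0.05, SE 0.12) and 56.5 against 67.7 CPM in 23KRA (0.26, SE 0.14, edgeR adjusted p = 1). It was chosen for its position after the values had been seen.

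Genes of ribosomal RNA synthesis were read beside Rn45s. All 36 listed genes of RNA polymerase I and of ribosomal RNA processing were tested, 23 above and 13 below 0 in the deletion (median 0.03) and 13 above and 23 below 0 in 23KRA (median -0.05). The nucleolar proteins Ncl and Npm1 were the most abundant, with 1750 against 1900 CPM and 709 against 752 CPM in the deletion (log2 fold changes 0.12, SE 0.11, and 0.08, SE 0.11). In 23KRA, Ncl had 5670 against 5610 CPM and Npm1 1350 against 1380 CPM. None of the 36 was called in the deletion, where 0.012% of all genes tested were, and Rn45s was not called either. Their part in the Rn45s values was not tested. All 23 genes of RNA polymerase III transcription, which makes Rpph1 and Rmrp, were tested, with medians of 0.04 and -0.03. Of these, the repressor Maf1 had 195 against 184 CPM in the deletion, and the TFIIIB subunit Bdp1 346 CPM in both groups of 23KRA.

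Proteins of paraspeckles and of nuclear speckles were as close to 0. The 12 paraspeckle proteins had medians of -0.03 and -0.02, with Sfpq at 246 against 224 CPM in the deletion (-0.13, SE 0.12) and 673 against 610 CPM in 23KRA (-0.14, SE 0.07), and Hnrnpk at 1170 against 1310 CPM and 1180 against 1170 CPM. The 14 nuclear speckle proteins had medians of -0.02 and -0.08, with Srsf2 at 1070 against 1010 CPM in the deletion and Srrm2 at 1560 against 1460 CPM in 23KRA (-0.10, SE 0.07). The 7 genes of the 7SK particle and of P-TEFb, the kinase it restrains, were all tested, with medians of 0.01 and 0.16. Larp7, which binds 7SK RNA, had 227 against 236 CPM and 329 against 324 CPM. The kinase subunit Cdk9 had 181 against 182 CPM in the deletion (0.01, SE 0.11) and 74.1 against 87.5 CPM in 23KRA (0.24, SE 0.10, edgeR adjusted p = 1).

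The other mitochondrial tRNA synthetases are the nearest relatives of Lars2 by role. All 16 were tested, with 9 above and 7 below 0 in the deletion (median 0.02) and 11 above and 5 below 0 in 23KRA (median 0.11). Rars2 had 108 against 119 CPM in the deletion (0.15, SE 0.11) and 48.2 against 52.1 CPM in 23KRA (0.11, SE 0.16), and Iars2 82.3 against 70.8 CPM in 23KRA (-0.22, SE 0.12). Among other structural RNAs, 5 were tested in 23KRA, all above 0 with a median of 0.40, and Rnu11 had 27.4 against 36.2 CPM (0.40, SE 0.31, edgeR adjusted p = 1). Among other lncRNAs, 19 were tested in 23KRA, 16 above and 3 below 0 (median 0.20), with Kcnq1ot1 at 457 against 495 CPM (0.12, SE 0.09), and in the deletion 6 of 21 were above 0. None of these passed.

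**Figure D4:**
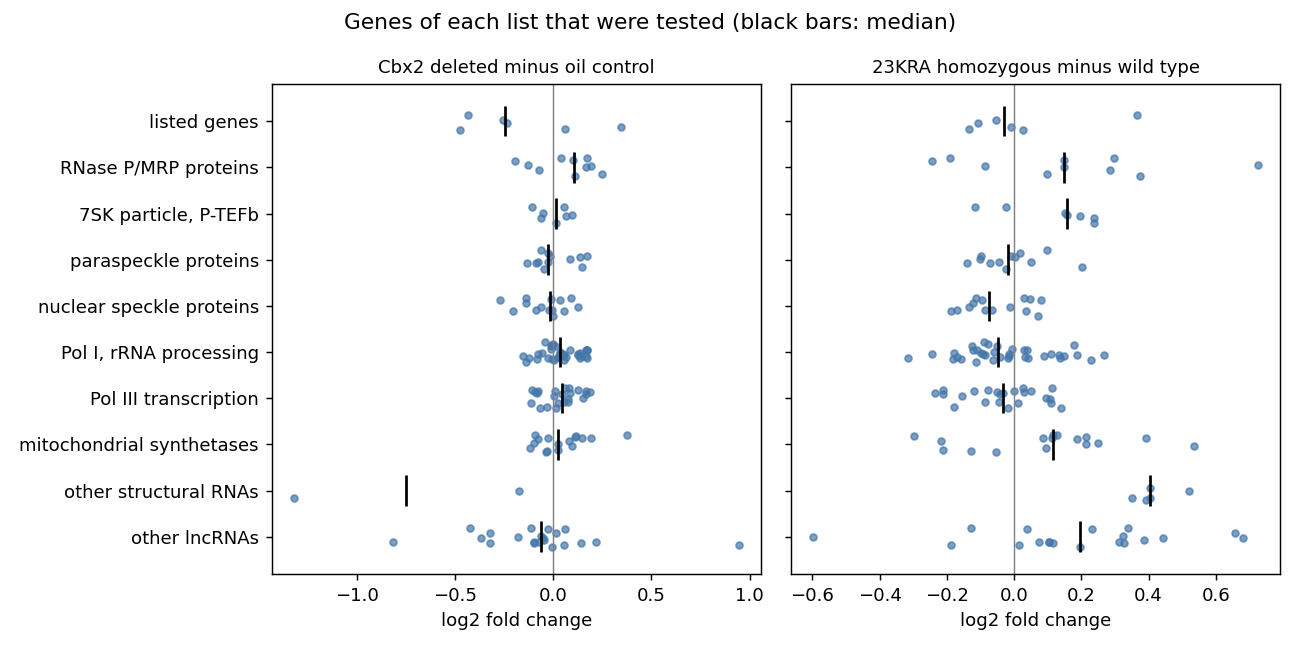
Log2 fold change, mutant minus control, of the tested genes of each list (points, spread vertically only for legibility) with the list median as a black bar, for the deletion (left) and 23KRA (right), each with its own axis range. Medians of the protein lists lie between -0.08 and 0.16, the listed genes have a median of -0.24 in the deletion, and 2 structural RNAs were tested there against 5 in 23KRA.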

How the data were processed

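Bulk RNA-seq of sorted spermatogonia was analysed in 14 libraries, each from 1 animal per the labels' protocols. The authors deposited unnormalized read counts per gene, in 1 table for each of the 2 experiments. Per the submitters' processing notes, mm10 was used with STAR 2.5.3, featureCounts, Subread 1.5.0, Trim Galore 0.4.3 and SAMtools 1.4.1. Annotation, strand setting and treatment of reads with several matches are not given in the sources used, so overlapping or near-identical genes may share counts.

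Percent of counts, and CPM in sentences on levels and kits, use the total over all genes. CPM in sentences on tests, and summed CPM of a list, use library sizes scaled by TMM. Each experiment was fitted alone with edgeR 4.0.16 (R 4.3.3): filterByExpr, TMM, a two-sided quasi-likelihood F test and Benjamini-Hochberg adjustment over all genes tested at 0.05. The difference of the comparisons was the interaction in 1 fit of 4 group means. Correlations used two-sided permutation tests with 100000 resamples. A blastn 2.17.0+ search of Lars2 used an E-value limit of 1e-05. No 2 libraries held identical values. In simulated counts, 2-fold changes were recovered in 73.1% of genes in the deletion design (16511 genes tested) and 55.1% in the 23KRA design (13737 genes tested). For 1.5-fold changes, nearer the size of the listed genes' differences, recovery was 36.9 and 20.6%.

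The listed genes, partner lists and tests were chosen with earlier results of these data known. Named partner genes are the called genes of a list or else the 2 of highest mean CPM, with up to 4 for other structural RNAs and lncRNAs, and the 3 genes most alike each listed gene. Alternatives were total counts, DESeq2 size factors (DESeq2 1.42.0), library sizes without the listed genes, no filter, DESeq2, limma-voom (limma 3.58.1), a replicate block, and leaving out each library.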

Additional observations from a re-analysis of the deposited data

How the results depend on the processing

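In the deletion, the number of genes called moved from 2 to 1 with total counts as library sizes, 8 with no filter, 1 with DESeq2 and 0 with limma-voom, and ranged from 2 to 73 when 1 library was left out: 11 without oil control replicate 1 and 73 without deleted replicate 2. In these fits of 1 library against 2 the lone library is assumed to vary like the remaining pair, so their counts say little about how many genes differ. Rn45s was the 1 listed gene called with no filter and without either of those libraries, and no listed gene was called under the other settings except the replicate block. Leave-one-out values of Rn45s ran from -0.684 to -0.22, of Rpph1 from 0.0902 to 0.682, of Rmrp from -1.01 to -0.0228, of Malat1 from -0.384 to -0.131, of Lars2 from -0.39 to -0.0499 and of Neat1 from -0.0222 to 0.155, which changes sign. Leaving out 1 library called 0 to 1 listed genes there.

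In 23KRA, leaving out 1 library left 0 genes called. Log2 fold changes near 0 changed sign: Rn45s ran from -0.0331 to 0.0913, Rpph1 from -0.149 to 0.141 (0.041 with limma-voom), Malat1 from -0.106 to 0.00336 and Neat1 from -0.272 to 0.101, while Rmrp stayed at 0.232 to 0.544. The differences between comparisons changed sign for Neat1 (-0.312 to 0.0603) and Lars2 (-0.0376 to 0.311).

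Replicate numbers were tried as a block. Same-numbered libraries correlated at 0.215 in the deletion, with only 2 pairs, and at 0.0608, 0.235, -0.0179, 0.0974 and 0.247 in 23KRA, where every number but 3 correlated best with its own. Over 0.1, a limit set here, were both pairs of the deletion and 2 of these 5. The labels name nothing that libraries of 1 number share, so the numbers were not taken as pairs in the main fits. In 23KRA the block lowered the SE of Rpph1 from 0.177 to 0.0422 and that of Rmrp from 0.191 to 0.0876. Rmrp then stood at 0.386 (edgeR adjusted p = 0.2499). With the replicate block, 62 genes were called in the deletion, among them 1 listed gene, Rn45s (edgeR adjusted p = 1.34e-07), and 2 genes in 23KRA, none of them listed.

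The ratio between the kits kept its direction for all 6 genes under every alternative run. The log2 ratio of Rn45s was 3.50, or 3.76 without oil control replicate 2 (range 3.28 to 3.76), and that of Malat1 2.12, or 2.22 over all libraries. Counting error was widest for Rpph1 and Rmrp in the polyA libraries, where a library held 13 to 64 of their counts although these were the deeper libraries.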
